A study of Mus musculus with 12 samples.

Results

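The glycolysis and hypoxia response genes described here are 36 mouse genes chosen by name, from the hexokinases at the entry of glycolysis to carbonic anhydrases that respond to low oxygen. A gene was taken when the symbol column of the probe table held its name exactly, which gave 32 of the 36 among 34509 symbols. Hk2, Eno1, Ldhb and Epas1 were not matched and were not analysed here. After a filter on dim probes, 29 of the genes had a probe to test, among 14317 genes tested in all. Hif1a (3 probes), Bnip3 and Higd1a did not pass it, with their probes detected above background on at most 2 of the 12 arrays.

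RNA was measured on 12 Illumina bead arrays from explants of femoral head cartilage, the cap of the thigh bone, taken from 21-day-old TS-4/5∆cat mice. These mice make ADAMTS-4 and ADAMTS-5 without their catalytic domains, through in-frame deletions, and the untreated controls carry the same deletions. Explants were left untreated, or were treated for 3 days with 10 ng/mL IL-1α, an inflammatory cytokine, or with 10 µM retinoic acid, the acid form of vitamin A. Each treatment had 4 arrays, 2 from the Donut line (batch 1) and 2 from the Gertrude line (batch 2), so that line and batch cannot be told apart. The labels describe 4 hips in each well with a serum pre-culture of 24 h, whereas the methods of the study describe 3 unpooled mice per treatment and serum-free medium. Neither says which array came from which animal, and with 4 arrays per treatment some may share an animal.

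Glycolysis splits glucose into pyruvate, which lactate dehydrogenase turns into lactate or the pyruvate dehydrogenase complex passes to the mitochondria. Pyruvate dehydrogenase kinases switch that complex off. Cartilage has no blood vessels, and chondrocytes live at low oxygen and rely on glycolysis. Under low oxygen the prolyl hydroxylases Egln1 and Egln3 mark hypoxia-inducible factors for destruction less well, and these factors then raise many glycolytic enzymes, Pdk1 and genes such as Car9, Ankrd37 and Bnip3.

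The hypoxia-inducible factors bind a short core in promoters, and the windows before 4 genes that carry the results below are shown to let a reader see where this core lies. The sequences are from RefSeq (GRCm38.p6), are the 250 bases before the annotated start, run 5′ to 3′ on the strand of the gene, and have each ACGTG or GCGTG, or its reverse complement, in capitals. Aldoc lies at chr11:78322823-78323072 on the plus strand, and Pdk4 at chr6:5496279-5496528, Egln3 at chr12:54203875-54204124 and Eno2 at chr6:124769674-124769923 on the minus strand.
Aldoc: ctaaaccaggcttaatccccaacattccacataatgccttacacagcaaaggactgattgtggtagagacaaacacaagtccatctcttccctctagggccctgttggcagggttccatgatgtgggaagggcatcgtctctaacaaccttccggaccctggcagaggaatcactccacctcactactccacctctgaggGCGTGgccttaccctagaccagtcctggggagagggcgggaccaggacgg
Pdk4: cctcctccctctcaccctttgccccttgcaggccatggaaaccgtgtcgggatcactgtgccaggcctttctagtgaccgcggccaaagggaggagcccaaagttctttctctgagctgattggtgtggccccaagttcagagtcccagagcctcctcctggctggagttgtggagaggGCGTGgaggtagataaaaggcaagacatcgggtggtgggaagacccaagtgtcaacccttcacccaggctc
Egln3: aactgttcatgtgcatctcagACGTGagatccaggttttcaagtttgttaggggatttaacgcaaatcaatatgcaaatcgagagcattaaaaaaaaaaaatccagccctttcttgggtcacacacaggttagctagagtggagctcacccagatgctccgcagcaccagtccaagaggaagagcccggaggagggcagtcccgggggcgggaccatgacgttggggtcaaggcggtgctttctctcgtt
Eno2: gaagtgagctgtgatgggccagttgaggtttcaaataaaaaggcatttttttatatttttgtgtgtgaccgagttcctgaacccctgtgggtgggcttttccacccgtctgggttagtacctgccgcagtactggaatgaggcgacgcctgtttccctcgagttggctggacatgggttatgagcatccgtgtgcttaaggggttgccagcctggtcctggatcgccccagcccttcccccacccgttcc
The core stood 50 to 46 bases before the start of Aldoc, 71 to 67 before that of Pdk4 and 229 to 225 before that of Egln3, and the window of Eno2 held no match. Of the 29 genes tested, 28 had such a window, and 20 of these (71.4%) held at least 1 core on either strand, where a CACGTG counts once on each strand. The share was 38.6% among 27025 genes with a window and 43.9% among 17492 protein-coding genes, which were not matched for base composition. AGGTCA, the half-site that retinoic acid receptors and related receptors bind, was found on either strand in 1 of the 28 windows (3.57%), against 13.8% of all genes. A match describes letters in a window and was tested neither for binding nor against the array values.

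The arrays of 1 treatment and batch correlated at 0.983 to 0.995 over the kept probes, and those of 1 treatment in different batches at 0.868 to 0.902. Probes detected numbered 13786 to 14965 on the arrays of batch 1 and 16732 to 19485 on those of batch 2. Cyp26b1, which breaks down retinoic acid, was at 9.81 ± 0.54 on the log2 scale (SD, n = 4) untreated and at 13.75 ± 0.53 with retinoic acid. Nos2, an IL-1 target, was not well above background on any untreated array and at 8.93 ± 0.06 with IL-1α, at least 14.1-fold higher. Levels below are normalized log2 intensities of 1 probe per gene, with 2 values from batch 1 followed by 2 from batch 2, and are compared only within a gene. In whole explants, fewer cells of a type and less RNA per cell cannot be told apart.

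Retinoic acid raised Pdk4 more than any other of the genes and lowered Aldoc, Car12 and Ndrg1. Against untreated cartilage, 13 of the 29 genes passed an adjusted p of 0.05 (limma, Benjamini-Hochberg over all probes), 6 higher and 7 lower, where 36.7% of all genes passed, 18.6% higher and 18.1% lower. Past 1.5-fold as well were 7 of the 29, against 22.8% of all genes. The median log2 fold change of the 29 was -0.02 and that of all genes 0.01. When arrays were scaled only to a common median, without quantile normalization, 9 of the 13 calls were left, 6 higher and 3 lower, without Pfkm, Pdk2, Pdk3 and Egln1, and 30% of all genes passed. These were also the calls that were lost on leaving out single arrays, in 1 of 12 cases for Pfkm, 4 for Pdk2, 5 for Pdk3 and 6 for Egln1, with adjusted p of up to 0.0958.

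IL-1α raised the 2 regulators of phosphofructokinase, and of the 15 glycolytic enzymes tested 5 were lower, 2 higher (Eno2 and Pgam2) and 8 did not pass. Of the 5 other hypoxia response genes 4 were lower. Against untreated cartilage, 13 of the 29 passed, 4 higher and 9 lower, against 30.2% of all genes, 15.1% higher and 15.0% lower. Past 1.5-fold were 6 of the 29, against 17.1% of all genes. The median log2 fold change was -0.15 for the 29 and 0.01 for all genes. Scaling to one median left 8 calls, 4 higher and 4 lower, without Pfkm, Aldoa, Pgk1, Ndrg1 and Car9, and the share of all genes fell to 17.9%. Left out singly, an array of batch 1 (untreated replicate 1 or 2) or of batch 2 (IL-1α replicate 1 or 2) brought the count to 8, and IL-1α replicate 2 of batch 1 brought it to 7.

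Set directly against each other, retinoic acid and IL-1α differed in 15 of the 29 genes, 10 higher with retinoic acid and 5 lower, where 32.5% of all genes differed, 16.1% higher and 16.4% lower. Past 1.5-fold were 11, against 20.2% of all genes. The median log2 difference was 0.20 for the 29 and -0.03 for all genes. With median scaling 10 of these calls were left, 8 higher and 2 lower, without Pfkfb3, Gapdh, Pkm2, Pdk2 and Ndrg1, and 23.6% of all genes passed. On leaving out single arrays, the Pkm2 call was lost in 11 of 12 cases, that of Gapdh in 6 and those of Pgam2 and Ddit4 in 4 each. Both treatments were compared with the same untreated arrays.

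**Figure D1:**
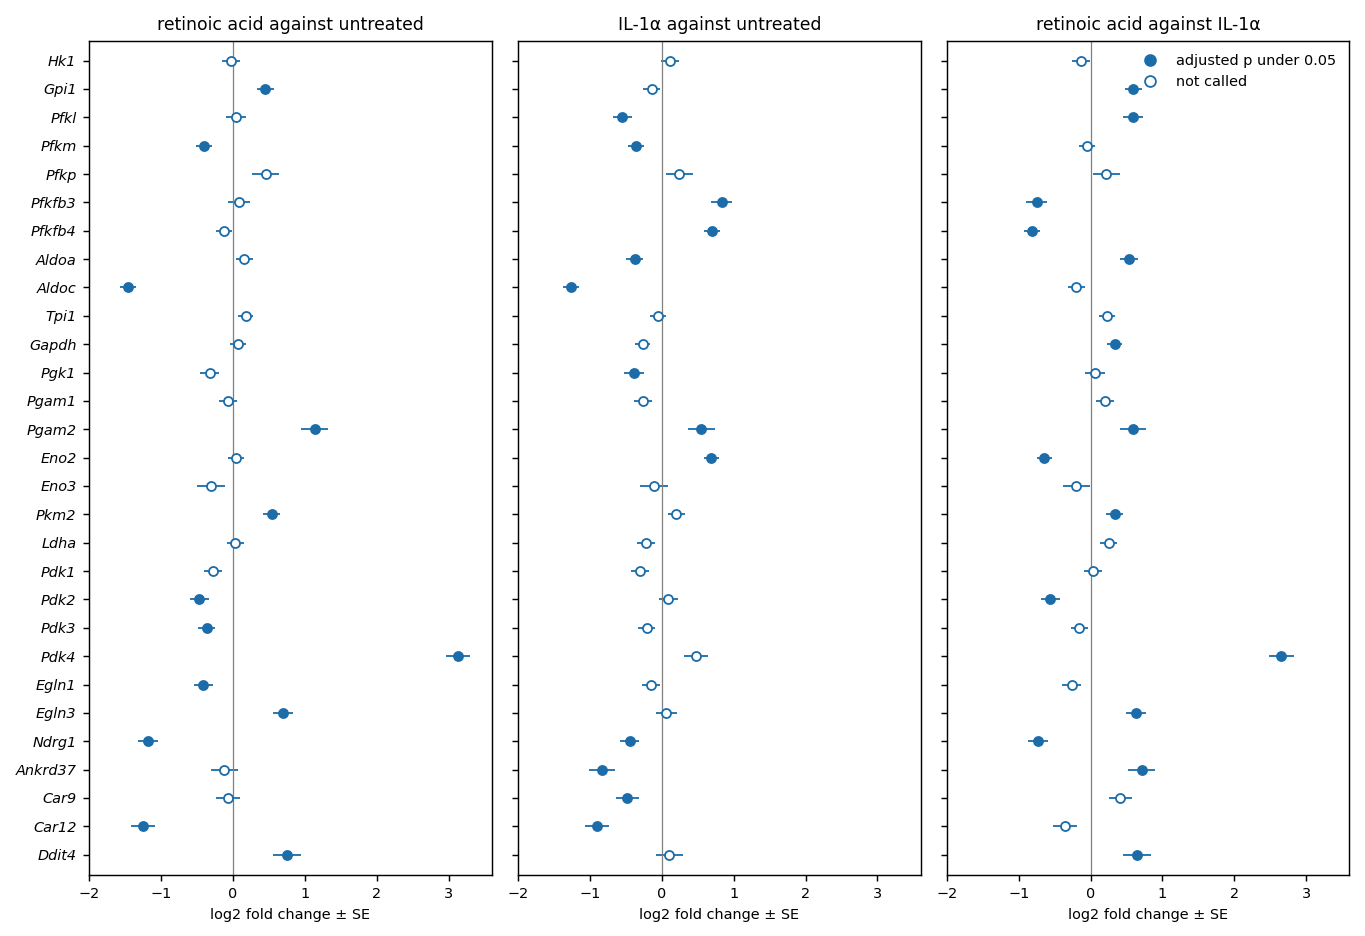
Log2 fold change (x axis, points, with bars for the standard error) of the 29 genes (y axis) in the 3 treatment comparisons over 4 arrays per treatment, with filled points for an adjusted p under 0.05. Pdk4 at 3.13 with retinoic acid stands far to the right of the other genes, and Aldoc lies near -1.46 with retinoic acid and -1.26 with IL-1α.

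Among the 15 glycolytic enzymes tested, Aldoc had the largest fall with both treatments. Aldoc (probe ILMN_3160137) encodes aldolase C, one of the 3 aldolases that split fructose 1,6-bisphosphate. It read 9.25, 9.40, 9.37 and 9.54 untreated, 8.05, 7.98, 8.27 and 8.21 with IL-1α, and 7.99, 7.93, 7.96 and 7.83 with retinoic acid. Every treated array lay below every untreated array. The log2 fold change was -1.46 ± 0.12 (SE) with retinoic acid (adjusted p = 6.7e-07) and -1.26 ± 0.12 with IL-1α (adjusted p = 6.3e-06), and between the treatments it was -0.20 (adjusted p = 0.232). Aldoa, the main aldolase of most tissues, fell by 0.38 on the log2 scale with IL-1α (adjusted p = 0.0335) and measured 0.16 with retinoic acid (adjusted p = 0.346). Its IL-1α call was lost on leaving out any of 6 arrays.

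Pgam2 (ILMN_2588815), the muscle form of phosphoglycerate mutase, was dim and rose with both treatments. It read 5.76, 5.50, 4.91 and 4.88 untreated, where it was detected on 3 of 4 arrays, 6.18, 6.36, 5.41 and 5.30 with IL-1α, and 7.33, 7.19, 5.51 and 5.57 with retinoic acid. Within each batch the treated arrays were above the untreated, and across batches the groups overlapped. Retinoic acid gave a log2 fold change of 1.14 ± 0.19 (adjusted p = 0.00035), made of 1.63 in batch 1 and 0.64 in batch 2, and these differed by -0.99 (adjusted p = 0.0166). With IL-1α it was 0.55 ± 0.19 (adjusted p = 0.0401), which was lost on leaving out any of 5 arrays. Pgam1, the form of most tissues, had a probe that was not well above background on any array of batch 1, and no comparison of it passed.

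Gpi1 (ILMN_2692845), which turns glucose 6-phosphate into fructose 6-phosphate, rose with retinoic acid. It read 11.88, 11.91, 12.01 and 11.87 untreated, 11.81, 11.85, 11.81 and 11.64 with IL-1α, and 12.25, 12.19, 12.61 and 12.42 with retinoic acid. The 4 retinoic acid arrays were above the other 8. With retinoic acid its log2 fold change was 0.45 ± 0.12 against untreated (adjusted p = 0.0089) and 0.59 ± 0.12 against IL-1α (adjusted p = 0.0017). A dimmer Gpi1 probe gave 0.51 with retinoic acid, and with IL-1α -0.69 (adjusted p = 0.00081) where the brighter probe gave -0.14 (adjusted p = 0.404), so the probes disagreed on IL-1α.

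The 3 phosphofructokinase genes encode subunits of the enzyme that commits sugar to glycolysis. Pfkl (ILMN_1236539), the liver form, read 12.48, 12.29, 12.01 and 12.09 untreated, 11.62, 11.46, 11.85 and 11.76 with IL-1α, and 12.38, 12.28, 12.24 and 12.14 with retinoic acid. All 4 IL-1α arrays were below the other 8. IL-1α gave a log2 fold change of -0.55 ± 0.13 (adjusted p = 0.0087) and retinoic acid against IL-1α one of 0.59 ± 0.13 (adjusted p = 0.0045), while retinoic acid against untreated was at 0.04. The IL-1α difference was -0.85 in batch 1 and -0.25 in batch 2, where alone it did not pass (adjusted p = 0.339). Pfkm, the muscle form, fell by 0.40 with retinoic acid and by 0.36 with IL-1α on the log2 scale (adjusted p = 0.0133 and 0.0301), and a dimmer Pfkm probe passed in neither. The IL-1α call was lost on leaving out any of 7 arrays. Pfkp, the platelet form, passed in no comparison over all arrays, but its IL-1α difference was 0.76 in batch 1 and -0.28 in batch 2.

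Eno2 (ILMN_2763002), the enolase best known from neurons, rose with IL-1α by about the same amount in both batches. It read 8.75, 8.86, 7.52 and 7.55 untreated, 9.55, 9.48, 8.21 and 8.20 with IL-1α, and 8.70, 8.92, 7.64 and 7.60 with retinoic acid. The batches lay apart, and within each the IL-1α arrays were above the rest. Its log2 fold change was 0.69 ± 0.11 with IL-1α (adjusted p = 0.00043), 0.71 in batch 1 and 0.67 in batch 2, and 0.04 with retinoic acid (adjusted p = 0.788). Eno3, the muscle enolase, passed in no treatment comparison.

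Of the enzymes with high intensities, Pkm2, the pyruvate kinase, rose by a log2 fold change of 0.54 ± 0.12 with retinoic acid (adjusted p = 0.0031), with all 4 arrays (13.38 to 13.55) above the untreated ones (12.71 to 13.18). Gapdh passed only for retinoic acid against IL-1α, at 0.33 (adjusted p = 0.0308), a call lost on leaving out any of 6 arrays. Pgk1 passed only with IL-1α, at -0.39 (adjusted p = 0.0442), a call lost on leaving out any of 8. Tpi1, Ldha and Hk1 passed in no comparison. Ldha, the subunit that makes lactate, measured 0.03 with retinoic acid and -0.22 with IL-1α (adjusted p = 0.865 and 0.187). A dimmer Tpi1 probe passed as higher with retinoic acid, at 0.58, and with IL-1α, at 0.44, where the brighter gave 0.18 and -0.05. The highest normalized value on any array was 14.24, near the level of the probes of Pkm2, Gapdh and Ldha and the brighter one of Tpi1. The size of their differences may therefore be compressed, which was not tested.

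Pfkfb3 and Pfkfb4 make and break down fructose 2,6-bisphosphate, the strongest activator of phosphofructokinase, and both rose with IL-1α and were lower with retinoic acid than with IL-1α. Pfkfb3 (ILMN_2731563) read 7.90, 8.25, 8.67 and 8.73 untreated, 9.15, 9.18, 9.23 and 9.32 with IL-1α, and 8.06, 8.07, 8.89 and 8.86 with retinoic acid. The IL-1α arrays were the 4 highest of the 12 and closer together than either other group. The log2 fold change was 0.83 ± 0.15 with IL-1α (adjusted p = 0.0011) and 0.08 with retinoic acid (adjusted p = 0.708). Retinoic acid against IL-1α gave -0.75 ± 0.15 (adjusted p = 0.0017), with -1.10 in batch 1 and -0.40 in batch 2, and median scaling ended this call.

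Pfkfb4 (ILMN_2712668) read 8.13, 8.13, 7.86 and 7.56 untreated, 8.69, 8.80, 8.63 and 8.35 with IL-1α, and 7.99, 8.01, 7.58 and 7.61 with retinoic acid. Here too the IL-1α arrays were the 4 highest. Its log2 fold change was 0.70 ± 0.11 with IL-1α (adjusted p = 0.00054), -0.12 with retinoic acid (adjusted p = 0.431) and -0.82 ± 0.11 between the treatments (adjusted p = 8.8e-05). These IL-1α calls held under every alternative that was run.

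The 4 pyruvate dehydrogenase kinases did not move together with retinoic acid. Pdk4 (ILMN_1259322), the form known to rise on fasting, read 8.22, 8.23, 8.70 and 9.13 untreated, 9.0, 8.92, 9.21 and 9.05 with IL-1α, and 11.13, 11.25, 12.27 and 12.15 with retinoic acid. No other array came within 1 log2 unit of the 4 retinoic acid arrays. The log2 fold change was 3.13 ± 0.17 against untreated (adjusted p = 2.6e-08), which is 8.76-fold, with 2.97 in batch 1 and 3.30 in batch 2. Against IL-1α it was 2.66 ± 0.17 (adjusted p = 9.8e-08), and IL-1α against untreated was 0.48 (adjusted p = 0.0531), which passed in 10 of the 24 alternatives run. A dimmer Pdk4 probe was detected on 1 untreated, 2 IL-1α and 0 retinoic acid arrays. It did not pass the filter, so the values given for Pdk4 rest on 1 probe.

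Pdk2 went the other way with retinoic acid, at -0.47 ± 0.13 (adjusted p = 0.0148), as did Pdk3 at -0.37 ± 0.12 (adjusted p = 0.0255). Pdk2 read 5.92, 6.05, 6.28 and 6.24 untreated, 6.31, 6.24, 6.14 and 6.17 with IL-1α, and 5.46, 5.96, 5.66 and 5.53 with retinoic acid. The retinoic acid arrays were below every IL-1α array and overlapped the untreated ones in batch 1. Pdk2 was also lower with retinoic acid than with IL-1α, at -0.56 ± 0.13 (adjusted p = 0.0058), a call that median scaling ended (adjusted p = 0.104). Pdk1, the kinase best known as a target of hypoxia-inducible factors, measured -0.27 with retinoic acid and -0.31 with IL-1α (adjusted p = 0.109 and 0.0838). With IL-1α against untreated, the adjusted p of the 4 kinases was between 0.0531 and 0.642.

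**Figure D2:**
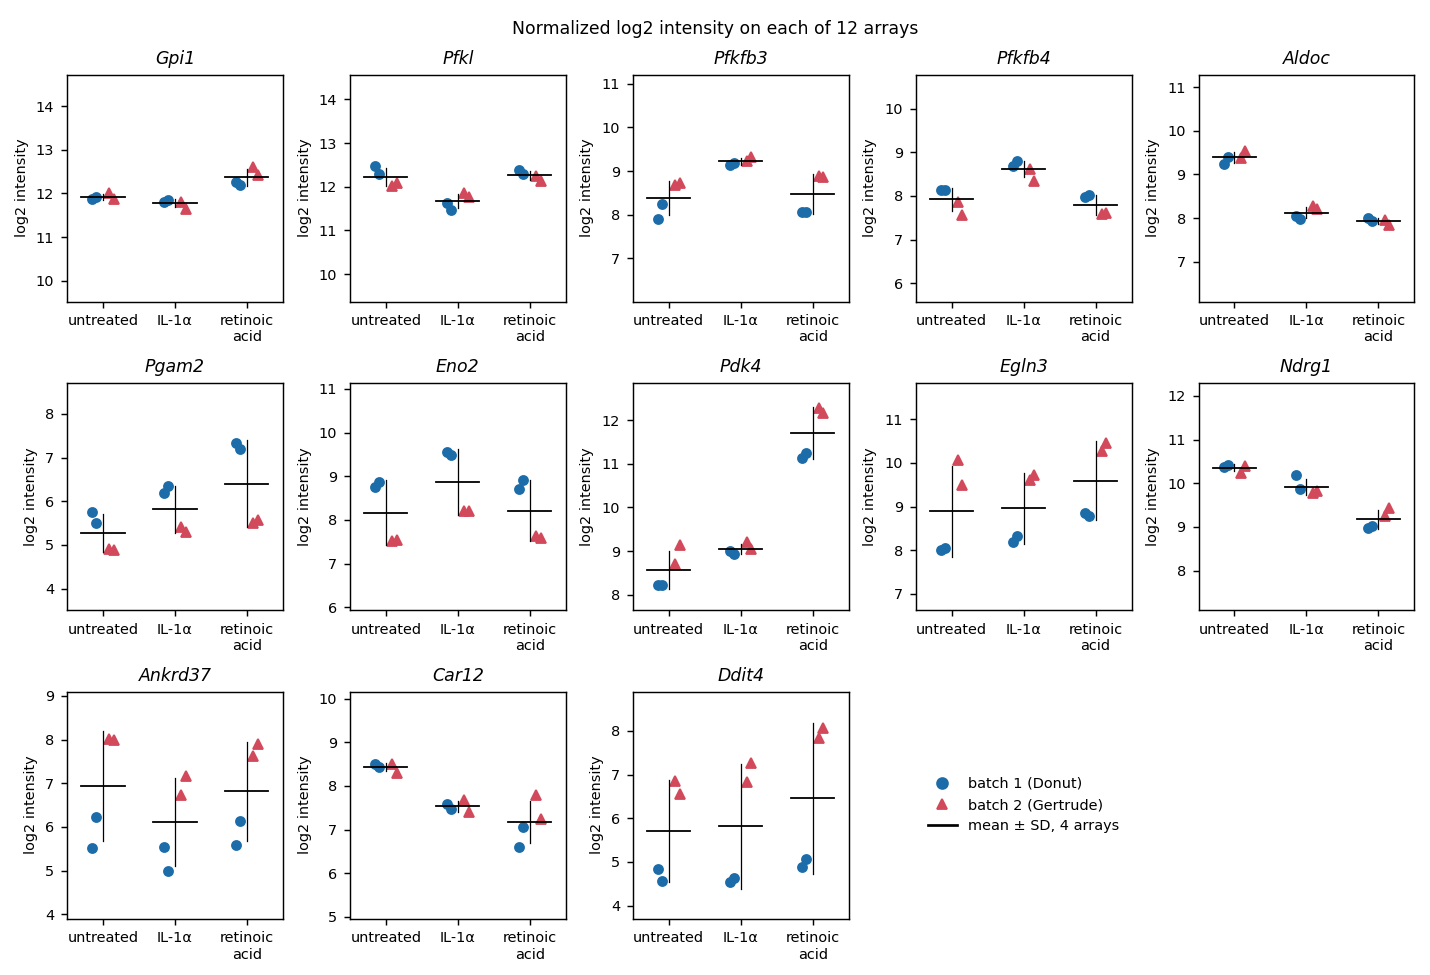
Normalized log2 intensity (y axis, each panel spanning the same number of log2 units around its own middle) by treatment (x axis) on the 12 arrays, for the 13 genes past an adjusted p of 0.05 and past 1.5-fold in at least 1 treatment comparison, with the mean and SD of 4 arrays as a black cross. The retinoic acid arrays of Pdk4 (11.13 to 12.27) lie above all others, both treated groups of Aldoc lie below the untreated one, and in Eno2, Egln3, Ankrd37 and Ddit4 the batches lie apart.

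The 2 prolyl hydroxylases differed in direction with retinoic acid. Egln3 (ILMN_2605819), which is itself raised by low oxygen, read 8.0, 8.04, 10.06 and 9.49 untreated, 8.20, 8.32, 9.61 and 9.73 with IL-1α, and 8.85, 8.79, 10.28 and 10.46 with retinoic acid. Within each batch the retinoic acid arrays were the highest. As log2 fold changes, Egln3 measured 0.70 ± 0.14 with retinoic acid (adjusted p = 0.0017) and 0.06 with IL-1α (adjusted p = 0.771), and a dimmer Egln3 probe gave 0.50 with retinoic acid (adjusted p = 0.0111). For retinoic acid against IL-1α the brighter probe gave 0.63 (adjusted p = 0.0038) and the dimmer 0.18 (adjusted p = 0.361), which did not pass. Egln1, the main oxygen sensor of the family, fell by 0.42 on the log2 scale with retinoic acid (adjusted p = 0.0255), and its 2 dimmer probes did not pass.

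Ndrg1 and Car12 were lowered by both treatments. Ndrg1 (ILMN_2646167), a stress-responsive gene, read 10.37, 10.41, 10.24 and 10.40 untreated, 10.19, 9.86, 9.77 and 9.82 with IL-1α, and 8.98, 9.03, 9.25 and 9.44 with retinoic acid. The 3 groups did not overlap, with IL-1α between the others. As a log2 fold change, Ndrg1 measured -1.18 ± 0.14 with retinoic acid (adjusted p = 2.2e-05), -0.45 ± 0.14 with IL-1α (adjusted p = 0.0277) and -0.74 ± 0.14 between the treatments (adjusted p = 0.0012). The IL-1α call was lost on leaving out any of 6 arrays, and the call between the treatments with median scaling and in batch 2 alone. A dimmer probe gave -1.27 with retinoic acid and -0.57 with IL-1α.

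Car12 (ILMN_1251713), a carbonic anhydrase of the cell surface, read 8.50, 8.44, 8.51 and 8.29 untreated, 7.59, 7.47, 7.69 and 7.40 with IL-1α, and 6.61, 7.07, 7.79 and 7.25 with retinoic acid. All 8 treated arrays were below the untreated ones. The log2 fold change was -1.26 ± 0.17 with retinoic acid (adjusted p = 7.2e-05) and -0.90 ± 0.17 with IL-1α (adjusted p = 0.0017). Car9, the carbonic anhydrase most used as a mark of hypoxia, fell by 0.48 with IL-1α on the log2 scale (adjusted p = 0.0411) and measured -0.07 with retinoic acid (adjusted p = 0.786). The Car9 call was lost on leaving out any of 5 arrays.

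Ankrd37 (ILMN_2595857), a small ankyrin-repeat protein induced by hypoxia, was lower with IL-1α. It read 5.52, 6.22, 8.0 and 7.99 untreated, 5.53, 4.99, 6.74 and 7.16 with IL-1α, and 5.58, 6.14, 7.63 and 7.90 with retinoic acid. The groups overlapped in batch 1 and stood apart in batch 2 for IL-1α against untreated. Ankrd37 had a log2 fold change of -0.83 ± 0.18 with IL-1α (adjusted p = 0.0049) and -0.12 with retinoic acid (adjusted p = 0.66), and it did not pass in batch 1 alone.

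Ddit4 (ILMN_2734764), an inhibitor of mTOR signalling, was not well above background on any of the 6 arrays of batch 1. In batch 2 it read 6.86 and 6.56 untreated, 6.82 and 7.25 with IL-1α, and 7.84 and 8.06 with retinoic acid. The retinoic acid arrays were the highest there, by 1.24 on the log2 scale against untreated. The model over both batches passed (adjusted p = 0.0081), but it averages batch 2 with values at background in batch 1, so no fold over both is given.

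The batches differed in more of these genes than any single treatment comparison, as they did among all genes. Batch 2 against batch 1, with treatment in the model, gave 18 of the 29 genes, 11 higher in batch 2 and 7 lower, where 76.1% of all genes passed, 29.7% higher and 46.3% lower. Among the 11, Pgam1 and Ddit4 were detected on 0 arrays of batch 1 and on 6 of batch 2. They met the filter through batch 2 alone, so their direction is no independent result. Median scaling gave 23 higher and 2 lower, with 65% of all genes passing, and quantile normalization within each batch gave 26 and 2, with 78.7% of all genes. The median of all genes for the batch difference was -0.20 with the main normalization, 0.46 with median scaling and 0.68 within batches, so each difference below is relative to a level that the normalization sets.

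Several hypoxia response genes were higher in batch 2, while Car9, Car12 and Ndrg1 did not pass between the batches with the main normalization. Ankrd37 was at 7.57 against 5.66 (log2 difference 1.91 ± 0.15), Egln3 at 9.94 against 8.37, and Egln1 at 9.61 against 8.09. Pgk1, a glycolytic target of hypoxia-inducible factors, was at 12.83 against 11.17 and Pfkp at 10.38 against 8.85. In these 5 genes every array of batch 2 was above every array of batch 1, and they were higher in batch 2 under all 5 settings of background correction, normalization and offset. Ddit4, not well above background in batch 1, was at least 3.65-fold higher in batch 2.

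Lower in batch 2 were Eno2, by 1.26 ± 0.08 on the log2 scale, Pgam2, by 1.12 ± 0.14, and Eno3, by 1.05 ± 0.15. Eno2 and Pgam2 were lower under all 5 settings, whereas Eno3 was at -0.15 with median scaling and at 0.07 with normalization within batches. Pfkfb4, Aldoa, Pkm2 and Tpi1 also passed as lower with the main normalization, at -0.36, -0.33, -0.28 and -0.20. Their differences were above zero with median scaling and with normalization within batches. Aldoc, Ndrg1, Car12, Car9, Gpi1 and Ldha did not pass between the batches with the main normalization, with differences of 0.10, 0.01, 0.21, -0.08, 0.08 and -0.03. The batches also differed in detected probes, as given above, whose part in these differences was not tested.

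**Figure D3:**
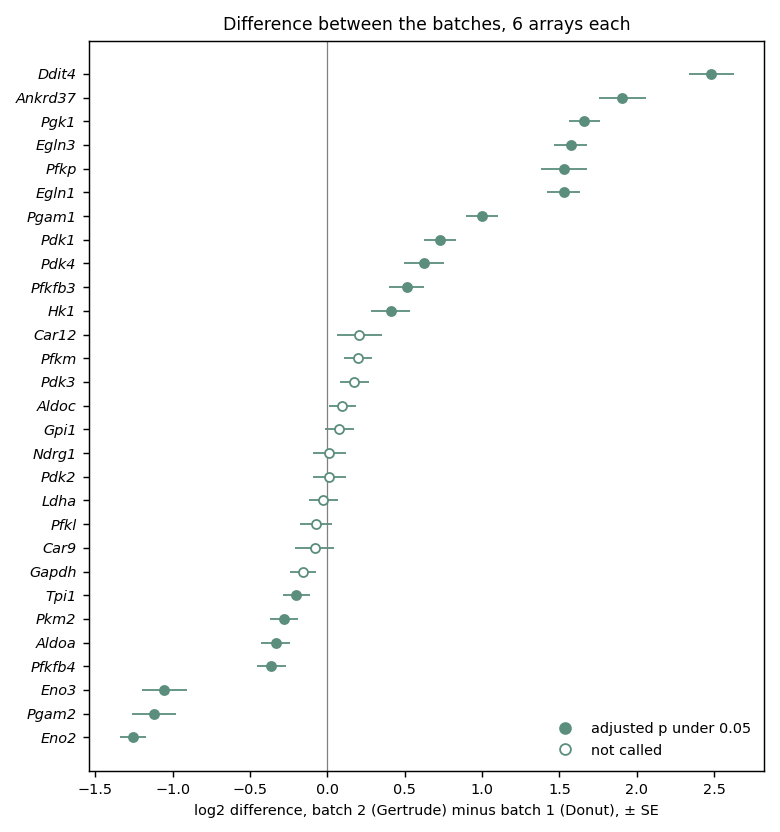
Log2 difference of batch 2 (Gertrude) minus batch 1 (Donut) (x axis, points, with bars for the standard error, 6 arrays each) for the 29 genes (y axis), with filled points for an adjusted p under 0.05. Ddit4 at 2.48, not well above background in batch 1, and Ankrd37 at 1.91 are farthest right, and Eno2 at -1.26 is farthest left.

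With the main normalization, treatment effects that differed between the batches were about as common in these genes as among all genes. The test of that difference passed in 1 of the 29 for retinoic acid against untreated, in 1 for IL-1α against untreated and in 3 for retinoic acid against IL-1α, where 2.70%, 4.57% and 8.91% of all genes passed. In arrays simulated for retinoic acid against IL-1α, 200 of 18227 probes were given a difference between the batches. One of 1 log2 unit was recovered in 15% of probes and one of 2 units in 80%. More genes than that passed in the data, which makes the adjusted threshold less strict there. Differences of this kind may thus be missed, but the share missed in the data is not known. The arrays of 2 treatments stood apart in the same direction within both batches for 14 genes with retinoic acid against untreated (42.6% of all genes), 14 with IL-1α against untreated (34.8%) and 17 for retinoic acid against IL-1α (40.1%).

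Among 53 other genes of glycolysis, pyruvate use and the hypoxia response, 40 were tested. With retinoic acid 6 were higher and 12 lower, where 18.6% of all genes were higher and 18.1% lower. With IL-1α 5 were higher and 9 lower, against 15.1% and 15.0% of all genes. For retinoic acid against IL-1α 7 were higher and 12 lower, against 16.1% and 16.4%. Their medians were 0.00, -0.05 and -0.08. The glucose transporter Slc2a1 was at 11.70 ± 0.26 untreated and 11.77 ± 0.28 with IL-1α, and at 10.74 ± 0.23 with retinoic acid (log2 fold change -0.96 ± 0.15, adjusted p = 0.00028). The transporter Slc2a3 was at 8.89 ± 0.14 untreated and fell to 8.0 ± 0.25 with IL-1α (adjusted p = 0.0019), and was at 9.26 ± 0.29 with retinoic acid. The 2 transporters thus differed between retinoic acid and IL-1α in opposite directions, at -1.03 and 1.26 on the log2 scale.

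Ppp1r3c, which targets a phosphatase to glycogen, fell in both treatments, with log2 fold changes of -3.10 with retinoic acid and -2.22 with IL-1α. The IL-1α value was -2.86 in batch 1 and -1.59 in batch 2, a difference of 1.26 (adjusted p = 0.0047). Stc2, a secreted glycoprotein, fell by 1.98 with retinoic acid. It was at 9.26 ± 0.28 untreated and 8.42 ± 0.37 with IL-1α, with every IL-1α array below every untreated one. Hmox1, which breaks down haem, rose with IL-1α by 2.12 ± 0.17, from 10.90 ± 0.63 to 13.02 ± 0.42, and measured 0.27 with retinoic acid (adjusted p = 0.246). These were the other genes past an adjusted p of 0.05 and past 2-fold in a comparison.

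Marker genes of cell types moved in the same arrays. Of 10 chondrocyte markers 9 were tested, Matn3 being undetected, and 9 of 9 fell with retinoic acid and 7 of 9 with IL-1α, with medians of -2.83 and -0.99. Their summed normalized intensity was 64246 to 78316 on untreated arrays, 36164 to 49223 with IL-1α and 10481 to 16341 with retinoic acid. Of the 6 macrophage and osteoclast markers, 5 were higher with retinoic acid, and with IL-1α 3 were higher and Emr1 was lower (adjusted p = 0.0068). Emr1 was not well above background on any array of batch 1. In batch 2 its mean was 7.14 untreated and 5.88 with IL-1α. The sums of the 6 markers were 4283 to 6584 untreated, 9096 to 10112 with IL-1α and 7432 to 10403 with retinoic acid. Of the 5 endothelial markers, 3 were lower with IL-1α, with sums of 1901 to 2350 untreated and 922 to 1212 with IL-1α.

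Of 5 neutrophil markers tested, 3 were lower with retinoic acid, with sums of 8710 to 13266 untreated and 4835 to 13629 with retinoic acid. By the test of that difference, this effect differed between the batches in S100a8, S100a9, Ngp and Mpo (adjusted p = 0.00027, 9.8e-06, 0.0016 and 1.7e-06). S100a8 and S100a9 were lower in batch 1 and higher in batch 2, with S100a8 at -1.11 and 0.74. Ngp and Mpo fell in both batches but more in batch 1, with Ngp at -1.98 and -0.53. For Camp the difference did not pass (adjusted p = 0.351). Of 3 osteoblast markers tested 2 were lower with each treatment, and of 2 adipocyte markers tested 2 were lower with each. Summed erythroid markers were at 21705 to 27818 untreated, 24880 to 34108 with IL-1α and 18923 to 31926 with retinoic acid, and 2 of the 4 tested were lower with retinoic acid than with IL-1α. Of 8 skeletal muscle genes listed, which would accompany Pgam2, Pfkm and Eno3 in muscle, 4 were tested, while Ckm and Mb were detected on 0 arrays. Tnnt3 was detected on all 12 arrays and fell with retinoic acid and IL-1α (log2 fold changes -1.45 and -1.26). Acta1, detected on 3 untreated arrays, 1 with retinoic acid and 0 with IL-1α, passed as lower with IL-1α. Mylk2, detected on the 4 IL-1α arrays alone, passed as higher with it. The filter let both genes in through those arrays alone, so their directions with IL-1α are no independent result. Tnnc2, detected on 9 arrays, passed in no comparison. The summed intensity of the 4 tested muscle genes, Mylk2 included, was 195 to 415 untreated, 193 to 437 with IL-1α and 138 to 224 with retinoic acid. The part of these cell types in the changes of the glycolysis and hypoxia response genes was not tested.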

How the data were processed

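The authors deposited probe intensities of 12 Illumina bead arrays on a linear scale, with no background subtraction or normalization. They also deposited a detection value per probe and array, under headers that name it a p-value. It was instead read as a detection score, and 1 minus that score was used as the detection p. The submitters' processing notes name limma, and the scanner software is not given in the sources used here. Columns of values without a sample numbered 0.

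In R 4.3.3 with limma 3.58.1, neqc estimated background from the detection p-values, applied quantile normalization and an offset of 16, and took log2. A probe entered the tests when at least 4 arrays had its detection p below 0.05, as 18200 of 46632 did. A gene was its brightest kept probe. The model held the treatment plus a block of 4 levels, one per batch and replicate number, as in the methods of the study. Means per treatment and batch tested whether effects differed between batches, and treatment with batch compared the batches. P-values were adjusted by Benjamini-Hochberg over all kept probes and measure the spread between arrays, which may be technical. The number of arrays limits the precision. Bounds set the mean of the brighter group against, per array, the higher of the lowest detected and the probe's own value.

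Values on every array are given for genes past an adjusted p of 0.05 and 1.5-fold in a treatment comparison, and other pathway genes are named past 2-fold. The members and lists were chosen with earlier results of these data known. The functions were tested on simulated data. With 200 changed probes among 18234, retinoic acid against untreated recovered 90% of changes of 1 log2 unit, with 11 other probes called. Alternatives covered background correction, normalization, offset, filter, probe choice, replicate and batch terms, and each array left out.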

Additional observations from a re-analysis of the deposited data

Results flagged for a closer look

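The IL-1α arrays of Ldha included 1 value far from the rest, batch 2 replicate 2 at 13.00, where the other 3 lay at 13.10 to 13.11. This was 1 of 87 groups of 4 arrays, and chance marks about 1 in 20 such groups.

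In 4 genes the effect of a treatment differed between the batches by a test of the difference itself. For Pgam2, the retinoic acid effect in batch 2 minus that in batch 1 was -0.99 against untreated (adjusted p = 0.0166) and -0.81 against IL-1α (adjusted p = 0.0253). For Pfkp, the IL-1α effect against untreated differed by -1.04 (adjusted p = 0.0224), from 0.76 in batch 1 to -0.28 in batch 2. For retinoic acid against IL-1α, Pfkfb3 differed by 0.69 (adjusted p = 0.0497) and Pdk4 by 0.85 (adjusted p = 0.0291), with Pdk4 at 2.23 in batch 1 and 3.08 in batch 2.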

How the results depend on the processing

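No called fold change of the 29 genes changed sign under any alternative that gave a value. Of the 13, 13 and 15 genes that passed for retinoic acid against untreated, IL-1α against untreated and retinoic acid against IL-1α, leaving out batch and the replicate block left 4, 3 and 6. Median scaling, which moved the median of all genes for retinoic acid against untreated from 0.01 to 0.13, brought the IL-1α count to 8, and batch 2 alone brought it to 7. Leaving out each array in turn gave 10 to 14, 7 to 14 and 12 to 15 genes. Without the replicate block, with batch kept, the counts were 13, 14 and 16. The numbers were not shown to pair the arrays, since deviations of same-numbered arrays correlated at 0.00 to 0.06 in batch 1 and -0.11 to 0.39 in batch 2.

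Effects that differed between the batches numbered 1 (retinoic acid against untreated), 1 (IL-1α against untreated) and 3 (retinoic acid against IL-1α). The first was 2 with an offset of 50 or with the mean of the kept probes, and 0 with detection on all arrays. The second was 4 with median scaling, 2 with an offset of 50 and 0 without a filter. The third was 7 with median scaling, where 14.5% of all genes passed, and 5 with the mean of the kept probes. Adding the replicate block gave 1, 1 and 4, and leaving out each array 0 to 2, 0 to 1 and 0 to 4. The Pgam2 difference for retinoic acid against untreated was -0.52 with median scaling (adjusted p = 0.584) and -0.60 with normalization within batches (adjusted p = 0.136). For retinoic acid against IL-1α, the Pgam2 difference was -0.40 with median scaling (adjusted p = 0.331) and the Pdk4 difference 0.60 with normalization within batches (adjusted p = 0.0959). The batch difference, 18 genes, was 28 with normalization within batches, 17 with the replicate block, and 17 to 18 with each array left out. The cause of these changes was not tested. The table names no chip for the arrays, so chip as a block was not run. Dim probes limit Pgam1, Pgam2, Ankrd37 and Ddit4, which lie near the lowest detected signal (4.86 to 5.48) on some or all arrays. Pdk2 and Car9 were detected on all 12 arrays but also came near it, down to 5.46 with retinoic acid and 5.36 with IL-1α.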

Other observations

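A few hypoxia-related genes outside the 36 were picked after their values were seen. Vegfa, the main growth factor for blood vessels, rose with retinoic acid by 0.56 ± 0.12 on the log2 scale (adjusted p = 0.0029) and measured -0.18 with IL-1α (adjusted p = 0.29). Angptl4, a secreted inhibitor of lipoprotein lipase, rose with retinoic acid by 0.88 ± 0.12 and with IL-1α by 0.41 ± 0.12, from 11.25 ± 0.26 untreated to 12.13 ± 0.16 and 11.66 ± 0.08 (SD, n = 4). The collagen prolyl 4-hydroxylases P4ha1 and P4ha2 fell with retinoic acid, by 0.74 ± 0.13 and by 0.66 ± 0.12, and P4ha1 also fell with IL-1α, by 0.50 ± 0.13.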
